A study of Solanum tuberosum with 11 samples.

Results

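The comparison described here sets the tip of dormant potato tubers at day 7 after a dormancy-breaking compound against solvent-injected tubers, across 20677 of the 35091 transcripts in the authors' deposited table. The samples are periderm discs that hold the apical bud, taken from greenhouse-grown minitubers of Solanum tuberosum cultivar Atlantic weighing 3 to 5 g. Control tubers are labelled as zero time and untreated with NG (3 libraries), and the treatment protocol gives 5 µl of dimethyl sulfoxide (DMSO, the solvent) for tubers without NG. The treated tubers received 10 µg of 1-(alpha-ethylbenzyl)-3-nitroguanidine (NG, which the labels spell 1-(alpha-ethylbenzy)-3-nitroquanidine) in the same volume of DMSO and were harvested at day 7 (3 libraries). By that protocol both groups share the injection and the solvent. How many libraries stand behind a value of the table, and whether each library is a separate tuber, is not stated. No DMSO library of day 7 is among the samples, so the effect of NG and that of the elapsed days cannot be told apart in any value below. The levels of 2 further conditions, called NG 1-Day and NG 5-Days in the table, are given beside them; no label names a day 5, while the labels do name 2 libraries of day 4, and the names of the table were kept.

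A potato tuber is a swollen stem, and its buds stay arrested for a time after harvest even where conditions would allow growth. This state ends with renewed cell division and growth in the bud meristem, and the store of starch and protein in the tuber then feeds the sprout. Abscisic acid is the hormone best known for holding buds dormant, and cytokinins are known for releasing them. NG is a synthetic compound with cytokinin activity that is used to end tuber dormancy. A disc of periderm and bud holds cork, parenchyma and meristem together, so fewer cells of a type and less RNA per cell cannot be told apart in these values.

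The members were taken by the marks that the table itself carries. All 19964 transcripts with the authors' test for NG 7-Days against the control were kept. Another 713 that the table marks as not tested were kept because their level was 5 or more in either condition. The transcripts left out were 14367 not tested and below that level, 9355 not tested ones being at 0 in both conditions, as well as 44 marked LOWDATA and 3 marked HIDATA. The change is given throughout as log2 of the level plus 1 in NG 7-Days over the level plus 1 in the control, so it understates the change of low transcripts. A difference of 2-fold means a log2 change of 1 on this scale, while a fold given for a single transcript is the ratio of its levels. The unit of the level is not named in the table, whose layout usually holds FPKM. The table has 1 value per condition, so a spread between libraries cannot be given, and errors are standard errors derived from the authors' fold change and statistic. The table pairs its identifiers with no gene names and 0 of them matched the reference table of the species, so the labelled tissue could not be checked against its marker genes and transcripts are described by position and level.

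Most of the transcriptome on day 7 lay close to the control. Across all 20677 members the median change was 0.04, with quartiles of -0.14 and 0.24, and 11432 members were above 0 and 9245 below. On day 7, 369 members were 2-fold or more higher (1.78% of all) and 194 were 2-fold or more lower (0.938%). Among the tested members alone the split turned, with 58 higher and 100 lower, so the higher share went from 65.5% to 36.7%. With a pseudocount of 0.1 in place of 1 the counts were 946 higher and 444 lower, and with a pseudocount of 5 they were 145 and 82. The authors' deposited table calls 3 of its 19964 tested transcripts, 0.015%, at an adjusted p under 0.05, and each of the 3 had fallen. At an unadjusted p under 0.05 the deposited test has 73 of the tested transcripts, 0.366%, of which 7 were higher and 66 lower on day 7. Evenly spread p-values would put a fraction of 0.05 below that threshold, so this share is low. The median log2 standard error of tested members was 0.64, against a median size of change of 0.18 on the level plus 1 scale. With the skipped members included, 296 of the 20677 members (1.43%) had an unadjusted p under 0.05 in the deposited test. Why so few p-values were low was not tested. The small number of calls does not measure how much differed.

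**Figure D1:**
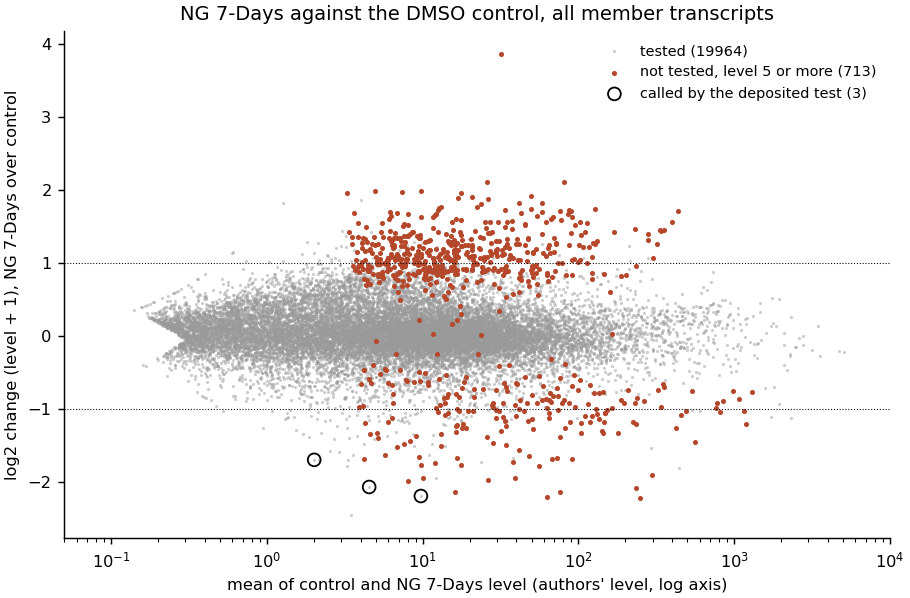
Each point is 1 of the 20677 members, with the mean of its control and NG 7-Days levels on a log axis and its log2 change (level + 1) on the y axis; dotted lines mark 2-fold. Tested transcripts (grey) crowd around 0 at every level, the 713 not tested (red) form a band on either side near or beyond the dotted lines, and the 3 called transcripts (circles) lie below.

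The 3 transcripts that fell had control levels between 3.61 and 16.6. PGSC0003DMG400015490, at chromosome 2, 20113979 to 20115721, stood at 16.6 in the control and at 2.85 in NG 7-Days of the authors' deposited table, 5.83-fold lower, and was at 5.17 in NG 1-Day and 1.42 in NG 5-Days. Its deposited log2 fold change was -2.54 with a standard error of 0.67 (authors' deposited test, adjusted p = 0.00412). Its control level was thus above that in every NG condition. PGSC0003DMG400033590, at chromosome 1, 75273081 to 75274481, went from 7.94 in the control to 1.13 in NG 7-Days of the authors' deposited table, 7.04-fold lower (log2 fold change -2.82, standard error 0.75, adjusted p = 0.00484 by the authors' test). It stood at 6.82 in NG 1-Day and 0.364 in NG 5-Days, so here the level in NG 1-Day was near that of the control. The remaining called transcript, at chromosome 3, 18603025 to 18605854, was at 3.61 in the control against 2.28 in NG 1-Day, 0.153 in NG 5-Days and 0.418 on day 7 of the authors' deposited table. All 3 had their lowest level in NG 5-Days and a higher one on day 7, still below that of the control. With p-values adjusted within this comparison only, none of the 3 kept its call.

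No transcript passed the deposited test as higher on day 7. The tested transcripts with the lowest deposited p among those higher, with a level of at least 5, were PGSC0003DMG401029631 and PGSC0003DMG400005361. PGSC0003DMG401029631, at chromosome 9, 50178944 to 50187678, was at 17.9 in the control against 9.70 in NG 1-Day, 22.8 in NG 5-Days and 38.4 on day 7 of the authors' deposited table, 2.15-fold above the control (log2 standard error 0.51, adjusted p = 0.295 by the authors' test). PGSC0003DMG400005361, at chromosome 4, 27218739 to 27223348, was at 47.4 in the control against 21.2 in NG 1-Day, 38.6 in NG 5-Days and 103 on day 7 of the authors' deposited table, 2.18-fold above the control (log2 standard error 0.55, adjusted p = 0.35 by the authors' test). Each was lowest in NG 1-Day and highest on day 7, and neither difference passed the threshold.

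Most of the 713 skipped members, kept by their level of 5 or more, differed 2-fold or more. The 14367 transcripts not tested and below that level are left out here. Among the 713, 311 were 2-fold or more higher on day 7 and 94 were 2-fold or more lower, together 56.8%, against 0.791% of the tested members and 0.915% of the 11918 tested members with a level of 5 or more. Their median size of change was 1.05, against 0.17 in those 11918. Of the 514 members with a level of 5 or more that differed 2-fold or more, 405 carried no test (78.8%), and of the 12117 that differed less, 308 carried none (2.54%). The share was greater at larger changes. For transcripts higher on day 7 it was 0.158% at a log2 size below 0.25, 39.5% from 0.75 to 1, and 98.5% at 1.5 or more. For those lower it was 0.0751%, 32.9% and 65% in the same ranges, with 69.7% in the class just below 1.5. Neither the labels nor the header give the rule behind the mark, and the 3 calls therefore describe the transcripts that were tested and not the comparison as a whole.

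**Figure D2:**
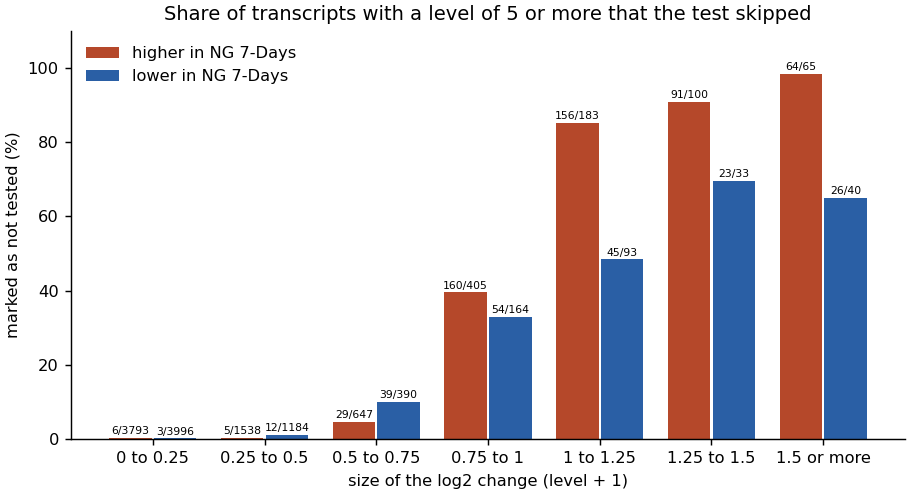
Bars give the percentage of members with a level of 5 or more that the authors' table marks as not tested, by size of the log2 change (level + 1) and direction; the fraction above each bar is not tested over all. The share goes from under 1% for the smallest changes to 98.5% of the higher and 65% of the lower transcripts at a size of 1.5 or more.

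The skipped transcripts still carry a p-value in the authors' deposited table, although no call was made from it. Of the 713, 223 (31.3%) had a p under 0.05, 128 of them higher and 95 lower, against the 0.366% of tested transcripts. Their standard error had a median of 0.64 on the log2 scale, against 0.52 in tested members with a level of 5 or more. When the p-values of all rows marked not tested were adjusted with the tested rows of all 6 comparisons, 22 transcripts were called on day 7, 2 higher and 20 lower, of which 19 were skipped members. When the members of this comparison were adjusted alone, none was called, and the lowest adjusted p was 0.114.

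The 713 skipped transcripts were chosen by their mark in a comparison that holds NG 7-Days, and the other comparisons with NG 7-Days share its levels. That their mark was most frequent in these comparisons follows in part from this choice and is a description. Of the 713 transcripts, the table marks 644 as not tested also for NG 7-Days against NG 1-Day and 651 for NG 7-Days against NG 5-Days. In comparisons without NG 7-Days it marks fewer of them, 269 for NG 1-Day against the control, 268 for NG 5-Days against the control and 201 for NG 5-Days against NG 1-Day. Over all transcripts with a level of 5 or more, the marked share was 5.47%, 3.3% and 5.59% in the same order. It was 8.22% for NG 7-Days against NG 1-Day and 6.19% for NG 7-Days against NG 5-Days. The 713 were counted at any level there, and were also marked more often than that background. Skipped transcripts with a level of 5 or more occurred in every comparison, from 425 to 1052. Their median size of change was 0.33 for NG 1-Day against the control and between 0.95 and 1.38 in the other 5 comparisons. In the NG 7-Days comparison, skipped transcripts just above the level of 5 (12 between 5 and 5.5) had a median change of 0.92, and those just below it (17 between 4.5 and 5) one of 0.95.

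Among skipped transcripts the greatest difference was an excess on day 7. The transcript at chromosome 10, 2210017 to 2210287, a locus of 270 bases, was at 3.23 in the control against 3.73 in NG 1-Day, 136 in NG 5-Days and 60.3 on day 7 of the authors' deposited table, 18.7-fold above the control (deposited log2 fold change 4.22, standard error 1.24). Its level on day 7 was below that in NG 5-Days, and the value in NG 1-Day was near that of the control. At chromosome 12, 5194227 to 5198043, the levels were 9.11 in the control against 100 in NG 1-Day, 8.18 in NG 5-Days and 42.6 on day 7 of the authors' deposited table. This transcript was high at the first and last NG condition and near the control between them. At chromosome 6, 42576446 to 42577294, they were 30.0 in the control against 1.07 in NG 1-Day, 8.45 in NG 5-Days and 132 on day 7, 4.40-fold above the control in the authors' deposited table (log2 standard error 0.69).

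The next pair in size had low control levels. At chromosome 1, 68236488 to 68237109, the authors' deposited table has 3.31 in the control against 0.0817 in NG 1-Day, 0.439 in NG 5-Days and 16.1 on day 7. At chromosome 4, 63498592 to 63513615, it has 1.41 in the control against 0.159 in NG 1-Day, 6.46 in NG 5-Days and 8.52 on day 7, and this locus overlaps 1 other transcript of the table, so that reads may have been divided between them. Of these 5, the 3 on chromosomes 1, 4 and 6 had their lowest level in NG 1-Day and their highest on day 7.

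The 5 greatest deficits among skipped transcripts started from control levels of 26.9 to 413. At chromosome 2, 38545396 to 38547565, the level was 413 in the control against 258 in NG 1-Day, 32.6 in NG 5-Days and 87.9 on day 7 of the authors' deposited table, 4.70-fold below the control (log2 standard error 0.56). At chromosome 11, 12252235 to 12253052, it was 103 in the control against 135 in NG 1-Day, 3.93 in NG 5-Days and 21.7 on day 7 of the authors' deposited table, 4.77-fold below (log2 standard error 0.54). Both show a trough in NG 5-Days that day 7 had left in part. At chromosome 3, 43002241 to 43004427, the levels were 124, 111, 4.16 and 27.4 in the control, NG 1-Day, NG 5-Days and NG 7-Days of the authors' deposited table. Also on chromosome 3, at 43352737 to 43353841, they were 26.9, 30.7, 0.181 and 5.36 in that order. At chromosome 6, 52403750 to 52404584, they were 380, 386, 22.4 and 88.5 in that order. All 5 had a day 7 level between that of NG 5-Days and that of the control. Each difference from the control was over 3 times its standard error in the deposited table, with no call made. The 5 were picked by the size of this difference, so that ratio is a description. With the authors' deposited p-values adjusted over the members of this comparison alone, the lowest adjusted p of any member was 0.114.

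Tested transcripts reached smaller excesses. The greatest, at chromosome 3, 25517019 to 25523413, was at 1.15 in the control and 6.83 on day 7 of the authors' deposited table, with a log2 standard error of 2.13. It shares its coordinates with 2 other transcripts of the table, 1 of them marked LOWDATA, and how reads were divided among them is not given. At chromosome 8, 31298455 to 31299106, a transcript listed at 0 in the control was at 0.317 in NG 1-Day, 3.32 in NG 5-Days and 2.55 on day 7 of the authors' deposited table. The next 3, on chromosomes 12, 9 and 5, had control levels of 1.17, 2.08 and 3.98 and day 7 levels of 4.91, 7.25 and 12.1 in the authors' deposited table, and their log2 standard errors lay between 1.29 and 1.38.

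The deficits among tested transcripts were larger. The greatest on the scale used here, at chromosome 4, 63592371 to 63597370, was at 6.55 in the control against 12.2 in NG 1-Day, 7.72 in NG 5-Days and 0.379 on day 7 of the authors' deposited table. Its log2 standard error was 4.83, larger than its log2 fold change of -4.11, and it overlaps 2 other transcripts. The next in size were PGSC0003DMG400015490 and PGSC0003DMG400033590, described above. At chromosome 4, 59859834 to 59860400, the level was 20.03 in the control against 11.5 in NG 1-Day, 0.786 in NG 5-Days and 4.44 on day 7 of the authors' deposited table, and the locus overlaps 1 other transcript. At chromosome 1, 74408506 to 74417239, it was 694 in the control against 690 in NG 1-Day, 124 in NG 5-Days and 198 on day 7, 3.51-fold below the control (adjusted p = 0.113 by the authors' deposited test). A second transcript with the same coordinates was also 2-fold or more lower, and the reads of this pair may not be separable.

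The sets that differed 2-fold or more on day 7 had contrasting levels in the other conditions. These sets were chosen by their control and NG 7-Days values, and comparisons with the control or with NG 7-Days use those values again. The 369 higher transcripts had a median level of 7.98 in the control against 1.97 in NG 1-Day, 7.27 in NG 5-Days and 20.5 on day 7. Their median was thus lowest in NG 1-Day, near the control in NG 5-Days, where single members lay on either side, and highest on day 7. The 194 lower transcripts had a median of 20.6 in the control against 20.8 in NG 1-Day, 4.36 in NG 5-Days and 8.63 on day 7. Their median was nearly the same in the control and NG 1-Day, lowest in NG 5-Days, and in between on day 7. None of the 194 had its highest level in NG 5-Days or NG 7-Days; 92 were highest in the control and 102 in NG 1-Day. Of the 369, 289 were highest on day 7, 77 in NG 5-Days and 3 in NG 1-Day.

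**Figure D3:**
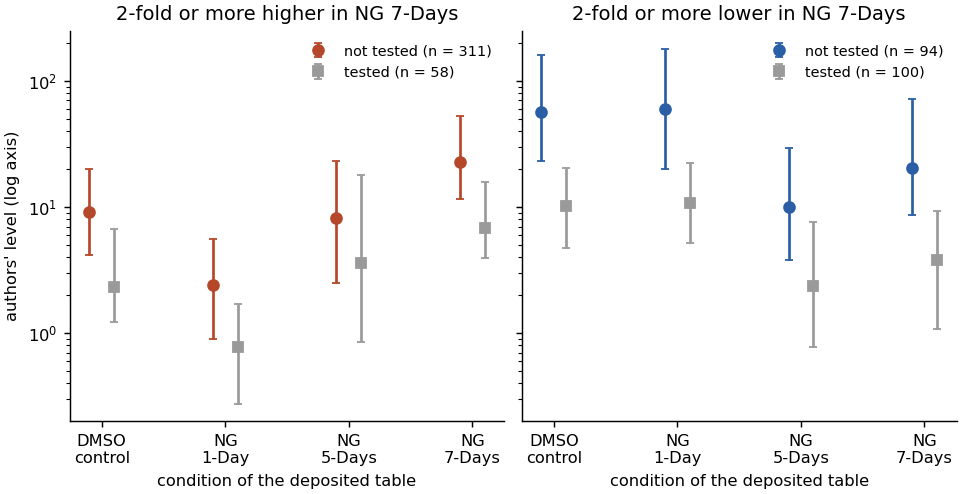
Points are median levels on a log axis and bars the quartiles over transcripts, for the sets 2-fold or more higher (left) and lower (right) in NG 7-Days, in the 4 conditions of the authors' table. The medians of the higher set dip in NG 1-Day and peak in NG 7-Days, and those of the lower set are lowest in NG 5-Days, in the tested and the not tested members.

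The step from NG 1-Day to NG 5-Days uses neither the control nor the NG 7-Days levels. Over it, more members with a test rose than fell in the higher set, and more fell than rose in the lower set. Of the higher set, 269 of 369 carried the authors' test for NG 5-Days against NG 1-Day, and 158 of them rose (58.7%) and 2 fell by its adjusted p. Over all transcripts tested there, 13.1% rose and 6.91% fell. That background includes the sets and has no rule on level. By contrast, 311 of the 369 were kept by their level, some of them only by that in NG 7-Days. Of the lower set, 137 of 194 carried that test, and 120 of them fell (87.6%) and 0 rose. The median change over this step, on the log2 (level + 1) scale, was 1.19 in the higher set, -1.86 in the lower set and 0.02 in the 20114 members of neither. Among those tested for this step, 137 of 218 skipped and 21 of 51 tested members of the higher set rose. In the lower set 64 of 64 skipped and 56 of 73 tested members fell. Skipped members of neither set, 230 of which carried this test, also had shares above the background, with 40% risen and 29.1% fallen. Their risen share was near the 41.2% of the tested members of the higher set. The median day 7 change was 1.23 in the higher set and -1.18 in the lower set.

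The control stood between NG 1-Day and NG 7-Days for 349 of the 369 higher transcripts (94.6%), for 102 of the 194 lower ones (52.6%) and for 63.9% of the 20114 others. The part of this position of the control in the counts from NG 1-Day to NG 5-Days was not tested.

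Comparisons of the other conditions with the control share its values with the comparison on day 7, and their own values for both sets are given here side by side. For NG 1-Day against the control the median change was -1.37 in the higher set and 0.03 in the lower set. The authors' deposited table calls 83 of the 294 tested members of the higher set as fallen in NG 1-Day and 0 of the 82 tested members of the lower set, where 1.03% of all tested transcripts are called fallen. For NG 5-Days against the control the median change was -0.39 in the higher set and -1.81 in the lower set. The deposited table calls 21 of 281 tested members of the higher set as risen in NG 5-Days and 4 as fallen, and in the lower set 0 of 109 as risen and 55 as fallen. The background there is 0.648% risen and 0.826% fallen. Of the lower set, 85 transcripts carried no test in NG 5-Days against the control, so the 55 are a count over part of the set.

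The higher set was mixed in NG 5-Days. It is divided here by its NG 5-Days level relative to the control, so the order of the control, NG 5-Days and NG 7-Days medians in each class follows in part from that choice and is a description. Of the 369, 85 (23.0%) were 2-fold or more above the control there too, with a median of 7.99 in the control against 2.53 in NG 1-Day, 35.2 in NG 5-Days and 21.2 on day 7. Another 89 (24.1%) were 2-fold or more below the control in NG 5-Days, with medians of 10.8, 1.24, 3.33 and 28.8 in the same order. The remaining 195 lay within 2-fold of the control in NG 5-Days, with medians of 6.38, 1.95, 5.25 and 15.7. Of the 89, 86 carried no test on day 7.

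The few members of the very highest level that differed 2-fold were lower on day 7, while a wider set of high-level members lay on both sides of the control. Comparing levels between transcripts takes the level as scaled to length, which the table does not state. Among the 100 members with the highest mean level, each at 736 or more, 0 were 2-fold or more higher on day 7 and 5 were 2-fold or more lower, and all 9 skipped ones among the 100 were below the control. Among the 500 with the highest mean level the median change was 0.04, with 273 above 0 and 227 below, and 12 were 2-fold or more higher and 18 lower. At a mean level of 500 or more, the 11 skipped members had a median change of -0.93 and all 11 were lower, while the 170 tested members had a median of 0.10. Skipped members at mean levels from 100 to 500 were 2-fold or more higher in 25 cases and lower in 23, and from 50 to 100 in 32 and 14. At mean levels from 5 to 10 the 156 skipped members had a median change of 1.02, with 130 of them higher. The tested members had medians between -0.02 and 0.10 in every class of level.

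The 3 members of highest level that differed 2-fold or more were all lower. At chromosome 2, 6136839 to 6138302, the level was 3184 in the control against 2100 in NG 1-Day, 1129 in NG 5-Days and 1462 on day 7 of the authors' deposited table (adjusted p = 0.854 by the authors' test). At chromosome 8, 1435830 to 1439140, it was 2355 in the control against 3621 in NG 1-Day, 754 in NG 5-Days and 1092 on day 7 of the authors' deposited table (adjusted p = 1 after rounding). At chromosome 3, 20367569 to 20368402, a skipped transcript was at 1662 in the control against 3064 in NG 1-Day, 302 in NG 5-Days and 716 on day 7. None of the 3 passed a test, with log2 standard errors between 0.86 and 1.09. The highest level among the 2-fold higher members, picked out after its values were seen, lay at chromosome 12, 4457674 to 4463918, with 204 in the control against 105 in NG 1-Day, 569 in NG 5-Days and 668 on day 7 of the authors' deposited table, and it carried no test on day 7.

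In summed level the sets were small. The 369 higher transcripts made up 1.12% of the summed level of all members in the control and 2.91% on day 7. The 194 lower transcripts made up 3.81% in the control and 1.62% on day 7. The 20114 others held 95.1% and 95.5%.

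Transcripts listed at 0 in a condition were few and low. Among members, 22 tested transcripts were listed at 0 in the control and at a median of 0.499 on day 7, the highest being the 2.55 given above. Another 9 were listed at 0 on day 7, with control levels from 0.322 to 1.05. None of the 31 was called, and no skipped member was listed at 0 in either condition. Of the 22, 11 were listed at 0 in NG 5-Days as well.

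Both sets were spread over all 12 chromosomes. The share of members 2-fold or more higher ran from 1.48% on chromosome 6 to 2.28% on chromosome 9. The share lower varied more, from 0.281% on chromosome 5 (4 of 1425) and 0.361% on chromosome 11 (5 of 1385) to 1.37% on chromosome 6 (26 of 1895) and 1.39% on chromosome 8 (20 of 1436). The median change per chromosome lay between 0.02 and 0.05.

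**Figure D4:**
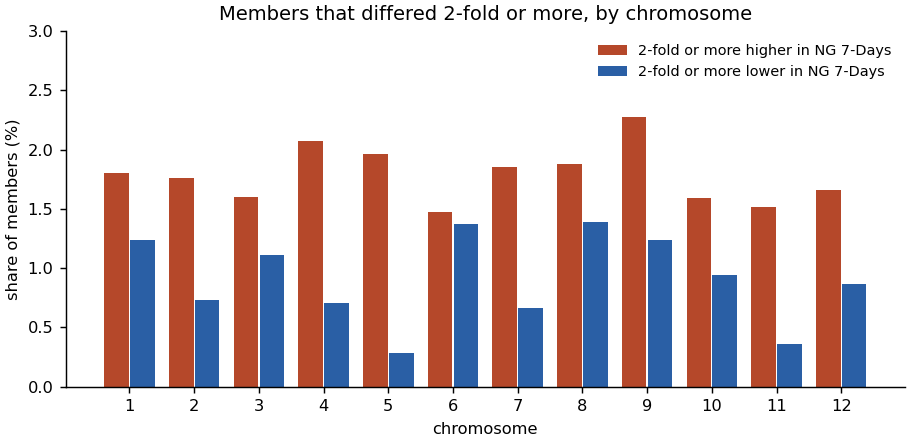
Bars give the percentage of the members on each chromosome that were 2-fold or more higher or lower in NG 7-Days, relative to the control. The higher share lies between 1.48% and 2.28% on every chromosome, and the lower share between 0.281% on chromosome 5 and 1.39% on chromosome 8.

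Within chromosomes, some stretches held more of one set. Windows of 10 Mb with at least 20 members were ranked after their values were seen, and these are descriptions of the extremes. Over all members, 1.78% were 2-fold or more higher and 0.938% lower. Between 10 and 20 Mb of chromosome 9, 11 of 89 members (12.4%) were 2-fold or more higher, and 9 of the 11 carried no test. The sum of their levels was 324 in the control against 58.9 in NG 1-Day, 249 in NG 5-Days and 903 on day 7. The window with the greatest share of lower members was 50 to 60 Mb of chromosome 6, with 12 of 360 (3.33%). The sum of their levels was 1705 in the control against 1753 in NG 1-Day, 328 in NG 5-Days and 601 on day 7. On chromosome 9 between 20 and 30 Mb, 4 of 121 members (3.31%) were lower. On chromosome 3 between 20 and 30 Mb, 11 of 363 members (3.03%) were lower, with summed levels of 4386, 6459, 949 and 2009 in the same order. The median locus of these 11 was 823 bases long.

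Some direct neighbours fell in the same set. Counted among members in order of position, 36 adjacent pairs of the higher set and 15 of the lower set lay side by side, and 69 higher members (18.7%) and 27 lower ones (13.9%) had such a neighbour. Of these pairs, 2 in the higher set and 1 in the lower set had identical coordinates. Over all members, 1.78% were in the higher set and 0.938% in the lower set. These are shares of membership and not of having such a neighbour, since a member can have a neighbour on either side. The number of pairs that a random order would give was not computed. There were 3 runs of 3 in each set. The run at chromosome 5, 1200300 to 1207110, holds 3 short loci of 497 to 660 bases that were skipped by the test. Their control levels lay between 5.28 and 6.63, those in NG 1-Day between 0.205 and 0.465, those in NG 5-Days between 0.937 and 2.43, and those on day 7 between 20.1 and 27.3. The run at chromosome 8, 29105447 to 29126305, had summed levels of 89.0 in the control against 1.35 in NG 1-Day, 30.9 in NG 5-Days and 271 on day 7, and 2 of its 3 transcripts share their coordinates. At chromosome 3, 41556951 to 41564554, the sums were 51.4, 7.46, 16.4 and 146 in the same order. Each of these runs was lowest in NG 1-Day and highest on day 7.

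The runs of lower members had another course. At chromosome 6, 52396752 to 52404584, the summed level of 3 loci of 726 to 834 bases was 481 in the control against 517 in NG 1-Day, 29.0 in NG 5-Days and 119 on day 7. At chromosome 9, 27840717 to 27886380, it was 75.4, 106, 17.0 and 30.6 in the same order. At chromosome 3, 22542305 to 22566804, it was 89.1, 73.9, 40.2 and 39.9, and here all 3 transcripts were tested and none was called. On chromosomes 6 and 9 the sums on day 7 were above those in NG 5-Days, and on chromosome 3 they were nearly equal. Whether neighbours in a run are similar copies that share reads was not tested.

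**Figure D5:**
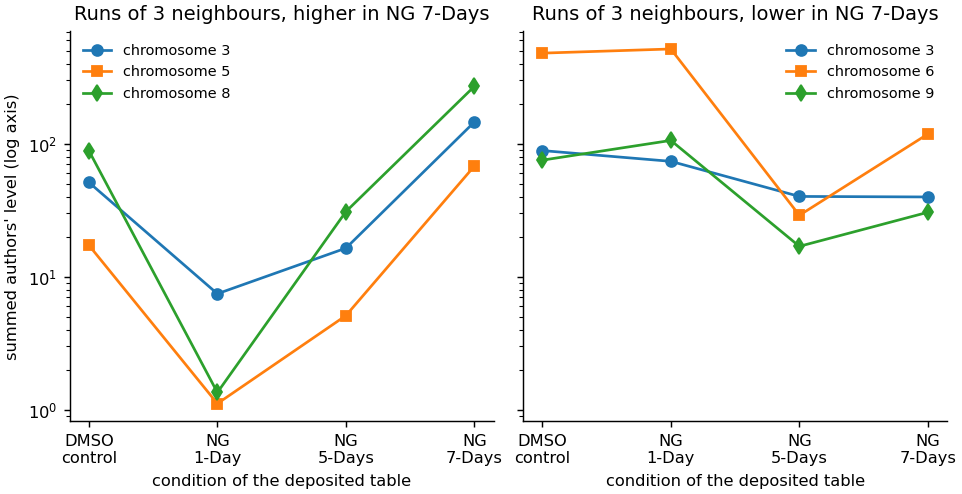
Lines join the summed level of the 3 transcripts in each run (log axis) across the 4 conditions of the authors' table, for runs of the higher set (left) and of the lower set (right). The runs on the left are lowest in NG 1-Day and highest in NG 7-Days, and those on the right have lower sums in NG 5-Days than those of NG 1-Day.

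Both sets tended to lie in shorter loci than the other members, with some members in every class of length. The median locus length, introns included, was 1893 bases in the higher set and 1616 in the lower set, against 3473 in the 20114 other members. Among loci under 1000 bases 6.10% of members differed 2-fold or more, with 100 higher and 60 lower, and among loci of 8000 bases or more 1.03%, with 12 higher and 7 lower. Short loci also had lower levels, with a median control level of 2.87 under 1000 bases and 11.6 at 8000 bases or more. Of the 713 skipped members, 155 lay in loci under 1000 bases and 11 in loci of 8000 or more. The part of length and level in the size of the changes was not tested.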

How the data were processed

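RNA was sequenced by the submitters from 11 libraries, per the labels, and the authors deposited a single table with 1 value per transcript and condition; a value per library is not used here and the depth is unknown. Its columns, per the file headers, follow the Cuffdiff comparison layout. The authors deposited levels with unit, aligner, versions and genome build not given in the sources used here. The authors' deposited p-values equal 2-sided normal tails of the statistic (to 2.85e-06), and the adjusted ones their Benjamini-Hochberg adjustment over all 118862 tested rows of 6 comparisons (to 3.32e-06). The standard error is the deposited log2 fold change divided by the statistic, whose sign is opposite to it.

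Changes, counts and alternative adjustments were computed with Python 3.11.15, numpy 2.4.6, pandas 2.3.3 and scipy 1.17.1, with a pseudocount of 1, and tested on simulated data. The limma and edgeR fits considered need a value per library and were not run, so the authors' test is the one reported. Members and lists were chosen with earlier results of these data known. By rule, identifiers are printed for at most 2 transcripts in each direction (called, else lowest deposited p); others are given by position: the 5 greatest changes each way among tested and among skipped members, and the 3 of highest level. None of the identifiers matched the 32873 genes of assembly SolTub_3.0, so gene lists could not be used.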

Additional observations from a re-analysis of the deposited data

Results flagged for a closer look

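A transcript that the comparison does not use stood above the control on day 7. It is marked LOWDATA, lies at chromosome 3, 25517019 to 25523413, and was listed at 54.0 in the control against 0 in NG 1-Day, with 7.77 in NG 5-Days and 191 on day 7 of the authors' deposited table, a log2 change (level + 1) of 1.81. The tested transcript with the greatest excess on day 7 has the same coordinates. Of the 44 LOWDATA transcripts 15 had a level of 5 or more, and 2 of them were 2-fold or more lower on day 7.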

How the results depend on the processing

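The 3 calls stayed 3 at an adjusted p under 0.01. They became 0 when this comparison was adjusted alone and 0 with its members, skipped ones included, adjusted alone, an alternative chosen after seeing the data. They became 22 with all rows marked not tested adjusted too and 73 at an unadjusted p under 0.05. The counts of members 2-fold or more higher (369) and lower (194) depended on the pseudocount: they were 946 and 444 at 0.1, and 145 and 82 at 5. Among tested rows alone they were 58 and 100, so that the higher share went from 65.5% to 36.7%. With all rows except HIDATA, a level of 10 for skipped rows, median centring (by 0.04) or LOWDATA rows added (chosen after seeing the data) both counts stayed within 1.5 times. The median change moved by less than the quartile range under each alternative. Of 81 changes of 27 transcripts given above, 6 moved by more than their standard error, all with another pseudocount, and 0 turned sign. For the transcript listed at 0 in the control, the quartile range took the place of the standard error. Each of the 3 called transcripts was among those that moved. With a pseudocount of 5 the change was -1.46 for PGSC0003DMG400015490 and -1.08 for PGSC0003DMG400033590. For the called transcript on chromosome 3 it was -0.668, less than 2-fold, against -1.70 with a pseudocount of 1. No paired analysis was possible because the table holds no value per library and leaving out single libraries was not possible either. Depth per library is unknown, so no detection limit was set for transcripts listed at 0.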
